A study of Mus musculus with 3 samples.

Results

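Monocytes and dendritic cells made up 122 of the 37066 cell barcodes recovered from the hypothalamus of heat-exposed, recovering and intake-matched mice. A barcode with at least 500 UMIs (unique molecular identifiers, each standing for 1 captured RNA molecule) and at most 20% mitochondrial UMIs counted as a member when 3 conditions held. It carried at least 1 UMI of Cd52, a small surface glycoprotein of blood leukocytes. It carried at least 1 UMI of 2 or more of 8 genes, namely Ccr2, Plac8, Ly6c2, Chil3, Ms4a4c, Cd209a, Flt3 and Xcr1. It carried fewer than 2 UMIs of each of 11 genes of other cells, namely Cd3e, Nkg7, Cd79a, Retnlg, Tmem119, Pf4, Cldn5, Myh11, Aqp4, Ccdc153 and Mog. The members were thus chosen by the UMI counts of these 20 genes, whose levels are given as a description.

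The study dissected the hypothalamus of 8-week-old male mice, digested it with collagenase II and prepared 3′ single-cell libraries with 10x Genomics v3 chemistry. There was 1 library for each of 3 conditions. QS was the recovery state after the end of heat exposure, HS was the heat-exposed state, and PF was a control matched to the heat-exposed mice in food intake. The sources used here do not give the strain, how many mice stand behind a library, how long recovery lasted or the temperature. RT, a further condition named in the design, was not analysed here. With 1 library a condition there was no replicate and no test between conditions. Every interval below is an exact 95% interval that covers counting error only. HS and QS were both set against the same PF library, so those comparisons are not independent of each other.

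Monocytes leave the bone marrow through the chemokine receptor CCR2, circulate in blood, and enter tissue, where they can become macrophages or antigen-presenting cells. Classical monocytes carry Ly6C on their surface. Conventional dendritic cells arise under the cytokine receptor FLT3, take up antigen and present peptides on MHC class II molecules to CD4 T cells. In the brain such cells sit mainly in the meninges, the choroid plexus and perivascular spaces, whereas the resident phagocyte of the parenchyma is the microglial cell.

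MHC class II genes were abundant in the members and differed together between libraries, so promoter stretches of 2 of them are shown. H2-Aa encodes the alpha chain of I-A, and H2-Eb1 encodes the beta chain of I-E. MHC class II promoters carry a conserved module whose Y box is an inverted CCAAT element, and a script searched for CCAAT and for its reverse complement ATTGG. Each stretch holds the 150 bases before the RefSeq start site (build GRCm38.p6), 5′ to 3′ along the gene's strand, and capitals mark the matches.
H2-Aa: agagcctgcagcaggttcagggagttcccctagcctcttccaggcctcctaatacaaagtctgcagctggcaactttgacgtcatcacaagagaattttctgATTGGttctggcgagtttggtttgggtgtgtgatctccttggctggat
H2-Eb1: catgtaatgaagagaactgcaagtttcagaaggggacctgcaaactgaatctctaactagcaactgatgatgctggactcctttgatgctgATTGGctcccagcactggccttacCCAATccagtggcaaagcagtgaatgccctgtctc
The H2-Aa stretch lies at chr17:34287824-34287973 on the minus strand and holds 1 match, which begins 48 bases before the start site. The H2-Eb1 stretch lies at chr17:34305717-34305866 on the plus strand and holds 2 matches, which begin 59 and 35 bases before it. Of 32851 RefSeq mouse promoters, 8047 (24.5%) held either motif in the same 150 bases, so a match is common and is given as a description.

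Sequencing depth was alike in the 3 libraries. The deposited matrices held 11720 QS, 12510 HS and 12836 PF barcodes, of which 11517, 12305 and 12645 passed the depth and mitochondrial limits with medians of 6410, 6510 and 6366 UMIs. The members had medians of 10273 UMIs in QS, 11270 in HS and 9379.5 in PF. No member barcode occurred in another library, although 128 barcode sequences did so among all barcodes. Scrublet, a doublet caller, marked 0 QS, 2 HS and 2 PF members, against 6.23%, 5.40% and 6.27% of all kept barcodes of those libraries.

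The genes that set the members apart from all other kept barcodes and that the rule had not used included genes of myeloid and antigen-presenting cells. Over the 3 libraries Napsa, an aspartic protease, reached 373 CPM (counts per 1000000 UMIs) in members, against 3.32 CPM in the other barcodes. Plbd1, a phospholipase B-like protein of granulocytes and monocytes, reached 291 CPM in members, against 2.66 CPM elsewhere. H2-Aa stood at 5511 CPM in members and 60.7 CPM elsewhere, and Cd74, the MHC class II invariant chain, at 15888 CPM in members and 291 CPM elsewhere. The cells were picked for genes that travel with these, so the contrast describes them and carries no test. Endothelial cells should lack MHC class II under most conditions, and H2-Aa was detected in 3.31% of them in QS, 5.98% in HS and 11.6% in PF at medians of 6173.5, 6809 and 6681 UMIs. Among members H2-Aa was detected in 63.3% in QS, 54.8% in HS and 88.0% in PF.

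The members were not 1 uniform type, and in PF most also carried macrophage genes that the label does not name. The complement genes C1qa, C1qb and C1qc are typical of microglia and tissue macrophages. At least 3 UMIs of them together were held by 10 of 30 QS members (33.3%) and 12 of 42 HS members (28.6%). In PF 31 of 50 members (62.0%) held as many. The limit took in cells with only 3 such UMIs in every library. In the members that met it, C1qb stood at 1745 CPM in QS, 921 in HS and 2508 in PF. Of the 31 C1q-bearing PF members, 8 carried Tmem119 and 7 carried P2ry12, genes of homeostatic microglia. The rule's limit was met more narrowly in PF, which had 27 members with exactly 2 of the 8 marker genes, against 8 in QS and 8 in HS. Just outside the limit lay 29 QS, 17 HS and 56 PF barcodes with Cd52 and 1 marker gene. In PF, S100a4 was detected in 16.1% of barcodes with 1 marker gene, 37.0% of those with 2 and 65.2% of those with more. H2-Aa was detected in 73.2%, 96.3% and 78.3% of the same PF sets.

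Markers of other cells differed between the libraries, and their part in the results below was not tested. The summed level of 7 microglial markers was 419 CPM in QS members, 277 in HS members and 904 in PF members. The 6 astrocyte and ependymal markers summed to 2533 CPM in QS, 613 in HS and 4232 in PF, of which most was Apoe, a lipid carrier that macrophages also make. The 7 neutrophil markers summed to 131 CPM in QS, 726 in HS and 63.6 in PF, and Ly6g and Camp were at 0 in all 3 libraries. Of the HS neutrophil UMIs, 72.8% came from 1 cell. The T cell list stood at 89.5, 32.5 and 27.8 CPM, the B cell list at 163, 156 and 149 CPM and the NK list at 83.1, 121 and 117 CPM in QS, HS and PF. Ms4a1 and Pax5, which define B cells, were at 0 in every library. The 7 endothelial markers summed to 198 CPM in QS, 247 in HS and 238 in PF. Those of pericytes and smooth muscle summed to 76.7, 303 and 364 CPM, with 57.9% of HS and 54.1% of PF UMIs from 1 cell. Cldn5, an endothelial exclusion gene, stood at 1 UMI in 15 of 30 QS, 13 of 42 HS and 12 of 50 PF members. Members with 0 UMIs of every exclusion gene numbered 11 in QS, 12 in HS and 21 in PF.

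Members were a small share of barcodes, and their share could not be told apart between libraries at this depth. They made up 0.260% of kept QS barcodes (interval 0.176 to 0.372), 0.341% of HS barcodes (0.246 to 0.461) and 0.395% of PF barcodes (0.294 to 0.521). The ratio of shares was 0.763 for QS over HS (0.461 to 1.25), 0.863 for HS over PF (0.559 to 1.33) and 0.659 for QS over PF (0.404 to 1.06), and each interval includes 1. Among members with fewer than 3 C1q UMIs the HS over PF ratio was 1.62 (0.884 to 3.05) and the QS over PF ratio 1.16 (0.586 to 2.29). A share of barcodes is not a count of cells in tissue.

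The make-up of the members by subtype gate differed between the libraries. Each member was placed in a subtype gate by the list of 8 genes of which it detected most, with at least 2 genes needed and ties unassigned. Ly6c2, Chil3, Cd209a and Xcr1 also served to choose the members. A cell chosen by Ly6c2 and Chil3 thus met the minimum of the classical monocyte gate already. The classical monocyte gate held 13 of 30 QS members (43.3%, interval 25.5 to 62.6), 29 of 42 HS members (69.0%, 52.9 to 82.4) and 8 of 50 PF members (16%, 7.17 to 29.1). The gates of conventional dendritic cells together held 10 QS members (33.3%, 17.3 to 52.8), 7 HS members (16.7%, 6.97 to 31.4) and 23 PF members (46%, 31.8 to 60.7). The HS and PF intervals for classical monocytes do not overlap, but they cover counting error only and not differences between animals. QS lay between HS and PF, and its interval overlaps both. With the exclusion genes at 0 UMIs the gate held 8 of 12 HS members (34.9 to 90.1%) and 4 of 21 PF members (5.45 to 41.9%). Those intervals overlap. In the other settings for membership and after thinning, the HS and PF intervals stayed apart.

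**Figure D1:**
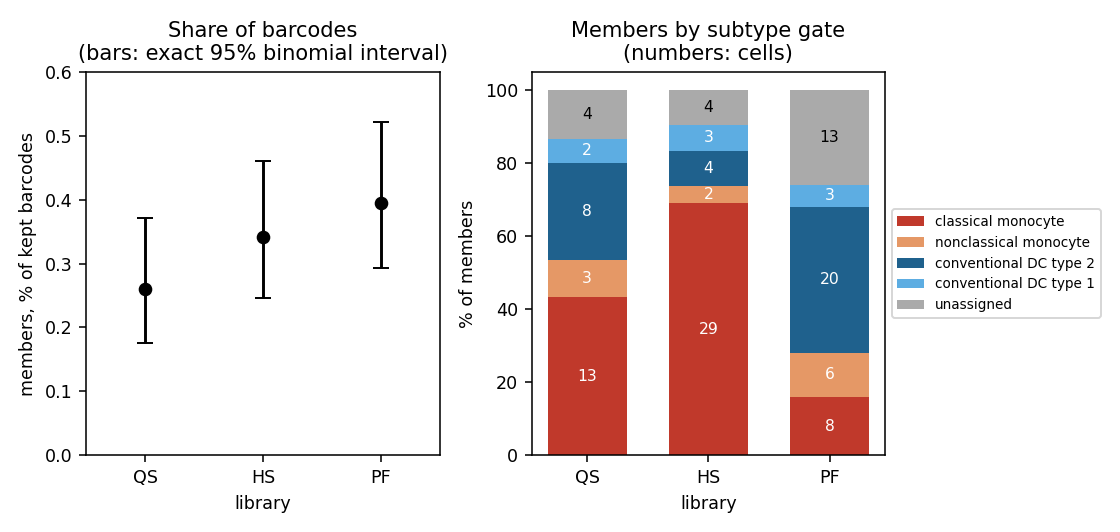
Left, members as a percentage of kept barcodes in the QS, HS and PF libraries with exact 95% binomial intervals; right, the percentage of members in each subtype gate, with cell numbers on the bars. The 3 shares overlap, whereas the classical monocyte gate takes 13 of 30 members in QS, 29 of 42 in HS and 8 of 50 in PF.

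Among the dendritic cell gates, type 2, the subset that presents antigen mainly to CD4 T cells, held 8 QS, 4 HS and 20 PF members. Type 1, the cross-presenting subset, held 2, 3 and 3. It thus made up 3 of the 7 HS cells but 3 of the 23 PF cells of these gates. Sums over these gates mix the types unequally. The nonclassical monocyte gate held 3 QS, 2 HS and 6 PF members. No member fell in the mature or the plasmacytoid gate. For 0 of 122 the limit of 3 counts is 2.46%, an approximation and not an exact interval. It holds only for the gates as defined. Thinned to 1000 UMIs a cell, 1 of 40 HS members fell in the mature gate. In PF, 4 members detected 2 or more plasmacytoid genes without falling in that gate. Of the C1q-bearing members, 3 QS, 3 HS and 12 PF cells were unassigned and 4, 2 and 12 fell in the type 2 gate. The classical monocyte gate held 2 QS, 6 HS and 3 PF cells of them. Without C1q-bearing cells the classical monocyte gate held 55.0% of QS, 76.7% of HS and 26.3% of PF members, and the dendritic cell gates 30%, 13.3% and 57.9%.

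The marker genes of the rule are described here, and several of them also define the gates. Ly6c2, the surface antigen of classical monocytes, was detected in 16 of 30 QS members, 32 of 42 HS members and 16 of 50 PF members, with 860, 1731 and 379 CPM. Plac8, a cytoplasmic protein of monocytes and neutrophils, was detected in 19, 35 and 15 members, with 1896 CPM in QS, 2811 in HS and 771 in PF. Both genes were highest in HS and lowest in PF. Thinned to 1000 UMIs a cell, Ly6c2 was still detected in 33.3% of QS, 67.5% of HS and 18% of PF members. Ccr2, the receptor that guides monocytes out of marrow, varied less, with 358 CPM in QS, 318 in HS and 240 in PF. Chil3, a chitinase-like protein of monocytes, was found in 7 QS, 23 HS and 5 PF members. Cd209a, a C-type lectin of dendritic cells, was found in 7, 4 and 15 members, with 301 CPM in QS, 193 in HS and 407 in PF. Over the 3 libraries Cd209a was detected in 24 of 32 cells of the type 2 gate, Flt3 in 7 and Zbtb46, a transcription factor, in 10. Clec4a4, a gene of the type 2 list, was detected in 0 of those 32 cells. In the type 1 gate Flt3 was detected in 6 of 8 cells and Zbtb46 in 5. In endothelial cells Ccr2 was detected in 0.314% of QS, 0.423% of HS and 0.432% of PF barcodes.

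The comparisons by gene used UMIs summed over all members of a library. A gene entered a comparison if both libraries' members held 30 or more of its UMIs in sum, and was called higher or lower when its CPM ratio passed 1.5-fold and the interval left out 1. For HS over PF, 680 of 4577 genes (14.9%) were called higher and 398 (8.7%) lower, around a median log2 ratio of 0.12. For QS over HS, 176 of 3918 genes (4.49%) were called higher and 377 (9.62%) lower, around a median of -0.09. For QS over PF, 322 of 3961 genes (8.13%) were called higher and 319 (8.05%) lower, around a median of 0.01. Scaling by the median of ratios in place of total UMIs gave 489 higher and 529 lower for HS over PF, and 235 higher and 268 lower for QS over HS. A difference in summed levels can come from different cells or from different RNA per cell, and the sums alone cannot tell these apart.

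Classical monocyte genes outside the rule were higher in HS than in PF. All 6 measured genes were called higher in HS over PF, against 14.9% of all genes, with a median log2 ratio of 2.17. F13a1, coagulation factor XIII subunit A, was detected in 12 of 30 QS members, 25 of 42 HS members and 11 of 50 PF members. Its level was 169 CPM in QS (interval 127 to 222), 308 in HS (259 to 363) and 65.6 in PF (45.1 to 92.1). Its HS over PF ratio was 4.69 (3.19 to 7.08). Hp, haptoglobin, stood at 368 CPM in QS, 587 in HS and 135 in PF, a ratio of 4.34 for HS over PF (3.32 to 5.75). Vcan, the proteoglycan versican, was found in 7 QS, 19 HS and 3 PF members with 73.6, 204 and 7.95 CPM, and only 4 UMIs lay behind the PF value. Its HS over PF ratio was 25.6 with a wide interval of 9.68 to 96.0. Mgst1, a microsomal glutathione transferase, had 134 CPM in QS, 208 in HS and 35.8 in PF.

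In QS these monocyte genes lay between the other libraries. Of the 6 genes, 5 were called lower in QS than in HS, against 9.62% of all genes, with a median log2 ratio of -0.66. Of 5 genes measured against PF, 5 were called higher in QS, against 8.13% of all genes, with a median of 1.44. For F13a1 the QS over HS ratio was 0.551 (0.394 to 0.761) and the QS over PF ratio 2.59 (1.64 to 4.12). Inside the classical monocyte gate the medians lay closer to 0. The list's median log2 ratio there was -0.21 for QS over HS, 0.64 for HS over PF and 0.34 for QS over PF. F13a1 stood at 375 CPM in QS, 466 in HS and 296 in PF. Of the 84405 UMIs of the 8 PF cells in the gate, 31522 came from 1 cell. That cell weighs on every PF value summed over the gate. In the gate 2 of 13 QS, 6 of 29 HS and 3 of 8 PF cells held 3 or more C1q UMIs. The gate was set partly with these genes, so its members had to detect some of them.

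Genes of type 2 dendritic cells went the other way. In HS over PF, 6 of 6 measured genes were called lower, against 8.7% of all genes, with a median log2 ratio of -1.54. Inside the dendritic cell gates, which were set partly with these genes, the HS over PF median was -0.67. There 1 of 6 genes was called lower, against 140 of 1756 genes measured. In QS over HS, 3 of 4 were called higher, against 4.49% of all genes, and in QS over PF, 2 of 6 were called lower, against 8.05%. Mgl2, a macrophage galactose-type lectin, was detected in 8 QS, 4 HS and 25 PF members, with 374 CPM in QS (309 to 448), 141 in HS (109 to 179) and 421 in PF (366 to 482). Mgl2 was low in HS alone, with an HS over PF ratio of 0.334 (0.249 to 0.443) and a QS over PF ratio of 0.888 (0.703 to 1.12). Tnip3, another gene of the list, was low in both QS and HS, with 345 CPM in QS, 305 in HS and 666 in PF. Irf4, a transcription factor needed by type 2 dendritic cells, had 25.6 CPM in QS, 8.66 in HS and 59.6 in PF. Its HS value rests on 4 UMIs, and its HS over PF ratio was 0.145 (0.0372 to 0.412). Klrd1, a lectin-like receptor, had 80.0 CPM in QS, 17.3 in HS and 51.7 in PF, with an HS over PF ratio of 0.335 (0.131 to 0.763). Clec10a, another galactose-type lectin, had 28.8, 19.5 and 55.6 CPM and a ratio of 0.350 (0.145 to 0.764). Without the cell with most UMIs of the gene in each library these ratios were 0.137, 0.305 and 0.189, as far from 1 or farther, but on fewer than the 30 UMIs that a call needs.

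MHC class II genes were lower in HS members than in PF members, with QS between. H2-Aa, whose gene spans chr17:34282744-34287823 on the minus strand (GENCODE M21, mm10), had 5411 CPM in QS members (interval 5156 to 5675), 2679 in HS members (2532 to 2833) and 8172 in PF members (7924 to 8425). The HS over PF ratio was 0.328 (0.307 to 0.349), the QS over HS ratio 2.02 (1.88 to 2.17) and the QS over PF ratio 0.662 (0.625 to 0.701). H2-Aa was lowest in HS and highest in PF. Cd74 followed the same order with 15443 CPM in QS, 7951 in HS and 23445 in PF, and an HS over PF ratio of 0.339 (0.327 to 0.352).

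Of the 10 MHC class II genes, 8 were called lower and none higher in HS over PF, against 8.7% and 14.9% of all genes, with a median log2 ratio of -1.36. H2-Eb1, the gene of the second promoter printed above, had 4922 CPM in QS, 2601 in HS and 6712 in PF. H2-Ab1, the beta chain that pairs with H2-Aa, had 3914, 2177 and 5587 CPM. H2-DMa and H2-DMb1, chosen here after their values were seen, form the chaperone that loads peptide onto class II. H2-DMa stood at 537 CPM in QS, 336 in HS and 574 in PF, and H2-DMb1 at 678, 390 and 743 CPM. Both had smaller HS over PF differences than the chains, with ratios of 0.585 (0.478 to 0.713) and 0.525 (0.437 to 0.628). H2-DMb2 stands in this list and in the type 2 dendritic cell list.

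Ciita, the master coactivator of class II transcription, did not share the order of its targets. It had 28.8 CPM in QS, 62.8 in HS and 57.6 in PF, from 9, 29 and 29 UMIs. Its HS over PF ratio was 1.09 (0.629 to 1.89), and its QS over HS ratio of 0.458 (0.191 to 0.994) was called lower. Without the cell with most of its UMIs in each library the ratio was 0.423 and its interval of 0.154 to 1.01 took in 1. In QS over HS, 7 of 8 class II genes were called higher, against 4.49% of all genes, and Ciita was the 1 called lower. In QS over PF, 2 of 10 genes were called lower, H2-Aa and Cd74, against 8.05%, and the median log2 ratio was -0.55.

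The class II level of single cells differed between gates. The 10 class II genes together took a median of 106 per 10000 UMIs in QS members, 16 in HS members and 549 in PF members. Members with at least 100 per 10000 numbered 15 of 30 in QS (50%), 12 of 42 in HS (28.6%) and 42 of 50 in PF (84%). In the type 2 dendritic cell gate the medians were 621 in QS, 518 in HS and 602 in PF, whereas in the classical monocyte gate they were 12.3, 5.80 and 40.4. The classical gate was not uniform in PF, where its 8 cells spanned 0 to 838 per 10000.

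**Figure D2:**
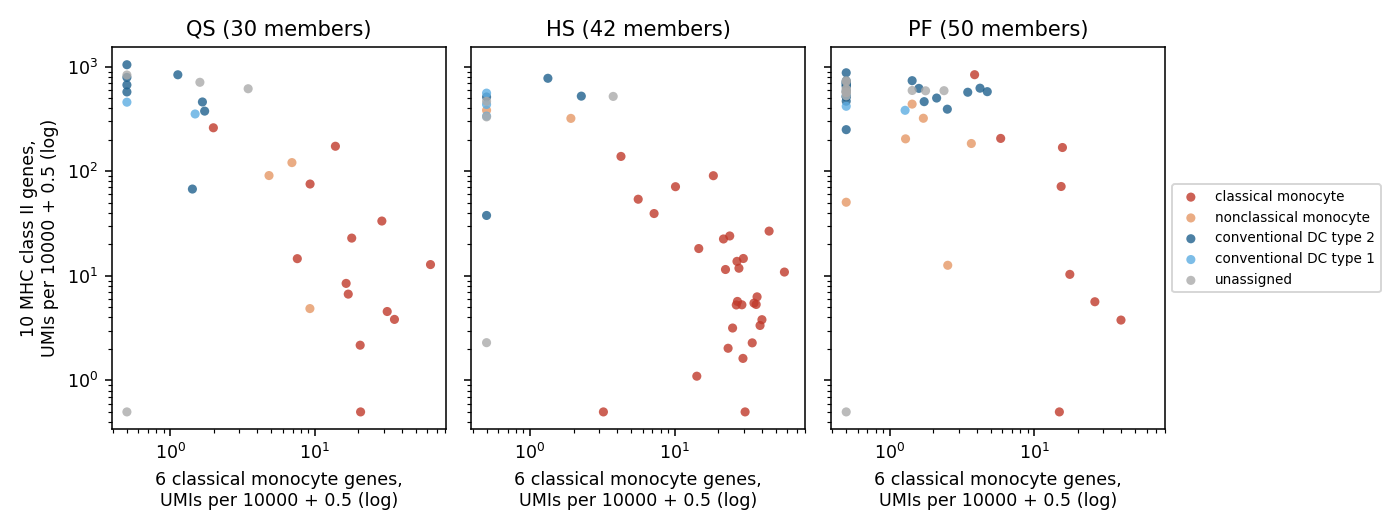
Each point is 1 member, coloured by subtype gate, with the summed level of 6 classical monocyte genes on the x axis and of 10 MHC class II genes on the y axis, both as UMIs per 10000 plus 0.5 on log scales, in panels for QS, HS and PF. Members with many monocyte UMIs lie low on the class II axis, and 29 of 42 HS members are in the classical monocyte gate, against 8 of 50 PF members.

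Within gates the class II difference between HS and PF was unequal. In the dendritic cell gates H2-Aa stood at 9240 CPM in QS, 7728 in HS and 10448 in PF. The list's median log2 ratio for HS over PF there was -0.20. Of its genes 0 of 9 were called, against 277 of 1756 genes measured in those gates. In the classical monocyte gate H2-Aa stood at 1020 CPM in QS, 171 in HS and 1860 in PF. The list's median there was -2.66, with 5 of 6 genes called lower, against 161 of 2398 genes measured in the gate. Of the PF UMIs of H2-Aa in that gate, 65.6% came from 1 cell. The PF cell of the gate with most class II UMIs, 498, held 70 C1q UMIs and 2 UMIs of the 6 monocyte genes. H2-Aa was detected there in 4 of 13 QS cells, 11 of 29 HS cells and 4 of 8 PF cells. Among members with fewer than 3 C1q UMIs the list's median for HS over PF was -1.57.

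**Figure D3:**
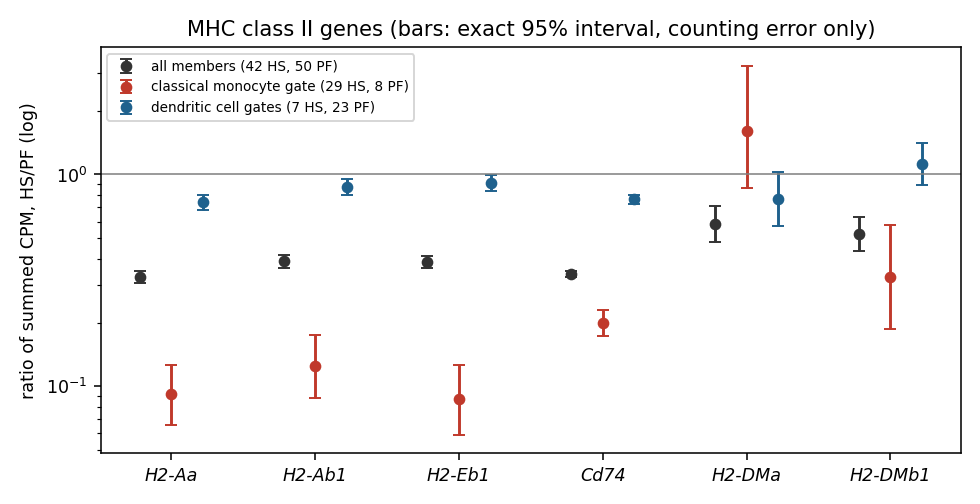
HS over PF ratios of summed CPM (log axis) for 6 MHC class II genes in all members, in the classical monocyte gate and in the dendritic cell gates, with exact 95% intervals for counting error. H2-Aa is at 0.328 in all members, at 0.092 in the monocyte gate and at 0.740 in the dendritic cell gates, where its interval of 0.683 to 0.801 leaves out 1, and H2-DMa lies above 1 in the monocyte gate with a wide interval.

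The macrophage genes noted above also differed. C1qb, the B chain of complement C1q, was detected in 16 of 30 QS members, 18 of 42 HS members and 37 of 50 PF members, with 537, 301 and 1510 CPM. Its ratio was 0.199 for HS over PF (0.165 to 0.239) and 0.356 for QS over PF (0.299 to 0.421). Cx3cr1, the fractalkine receptor of microglia and nonclassical monocytes, had 60.8, 17.3 and 131 CPM. Apoe had 2466 CPM in QS, of which 59.0% came from 1 cell, 500 CPM in HS and 4137 CPM in PF. Microglial genes were called lower for 3 of 4 measured in HS over PF, against 8.7% of all genes, and for 4 of 4 in QS over PF, against 8.05%. The 13 unassigned PF members, 12 of them C1q-bearing, held H2-Aa at 10214 CPM, a level alongside the 10448 CPM of the PF dendritic cell gates.

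Of 28 measured interferon-stimulated genes, 14 were called higher and none lower in HS over PF, against 14.9% and 8.7% of all genes, with a median log2 ratio of 0.67 beside 0.12 for all genes. Cxcl10, a chemokine for activated T cells, was found in 11 of 30 QS, 17 of 42 HS and 16 of 50 PF members, with 361, 918 and 231 CPM and an HS over PF ratio of 3.98 (3.24 to 4.94). Gbp2, a guanylate-binding protein, had 44.8 CPM in QS, 160 in HS and 45.7 in PF. Inside the classical monocyte gate 2 of 24 interferon genes were called higher and 1 lower, against 190 and 161 of 2398 genes measured there. The interferon median was 0.08 in the gate, beside 0.09 for all genes there.

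In QS the interferon genes did not follow 1 direction. In QS over HS, 7 of 28 interferon genes were called lower and 2 higher, against 9.62% and 4.49% of all genes, and in QS over PF, 7 of 27 were called higher and 4 lower, against 8.13% and 8.05%. Ifit1, a sensor of uncapped RNA, was highest in QS with 125 CPM in 8 members, against 28.2 CPM in HS and 9.93 CPM in PF. Its QS over PF ratio was 12.6 (4.94 to 40.8). Rsad2, the antiviral enzyme viperin, had 134 CPM in QS, 117 in HS and 47.7 in PF. Oasl1, an oligoadenylate synthetase-like protein that was not in the list but was among the 8 highest QS over PF ratios, had 761 CPM in QS, 639 in HS and 163 in PF. Its ratio was 4.67 for QS over PF (3.62 to 6.08) and 3.92 for HS over PF (3.06 to 5.07). Ifih1, the RNA sensor MDA5, counted here with the pattern recognition genes, had 419 CPM in QS, 173 in HS and 123 in PF, and 42.7% of its QS UMIs came from 1 cell. MHC class I and immunoproteasome genes were called higher for 4 of 14 in HS over PF, against 14.9% of all genes. Psmb10, an immunoproteasome subunit, had 150 CPM in QS, 221 in HS and 85.4 in PF.

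Of 19 measured heat shock genes, none was called higher and 7 lower in HS over PF, against 14.9% and 8.7% of all genes. In QS over HS 4 were called higher and 1 lower, against 4.49% and 9.62%. Hspa1a, the inducible HSP70 chaperone, had 5190 CPM in QS, 2885 in HS and 5581 in PF. Its HS over PF ratio was 0.517 (0.484 to 0.552) and its QS over HS ratio 1.80 (1.67 to 1.94). The near-identical Hspa1b, whose reads can be split from those of Hspa1a only in part, had 3802, 1867 and 4512 CPM. Hsph1, an HSP110 chaperone, had 342 CPM in QS, 130 in HS and 411 in PF. Bag3, an HSP70 co-chaperone, had 83.1, 58.5 and 191 CPM, and 44.8% of the PF UMIs came from 1 cell. In the dendritic cell gates Hspa1a stood at 5821 CPM in QS, 5238 in HS and 4889 in PF, so HS and PF changed order. Type 1 cells made up 3 of the 7 HS cells and 3 of the 23 PF cells there. The part of this unequal mix was not tested. In the classical monocyte gate Hspa1a stood at 3233 CPM in QS, 1170 in HS and 2701 in PF.

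Of 16 measured genes that respond to glucocorticoids, 2 were called higher and 4 lower in HS over PF, against 14.9% and 8.7% of all genes. In QS over PF 2 were called higher and 2 lower, against 8.13% and 8.05%. Cdkn1a, a cell cycle inhibitor, had 422 CPM in QS, 411 in HS and 823 in PF. Errfi1, a feedback inhibitor of EGF receptors, had 99.1, 45.5 and 177 CPM. Cebpd, a transcription factor of the acute-phase response, had 112 CPM in QS, 130 in HS and 73.5 in PF. Dusp1, a phosphatase that switches off MAP kinases, had 2430 CPM in QS, 1713 in HS and 1222 in PF, a ratio of 1.99 for QS over PF (1.79 to 2.22). Inside the dendritic cell gates the QS over PF ratio of Dusp1 was 0.790.

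Of 18 cytokine and NF-kB genes, 3 were called higher and 3 lower in HS over PF, against 14.9% and 8.7% of all genes, and 3 of 17 each way in QS over PF, against 8.13% and 8.05%. Cxcl2, a neutrophil attractant, had 863 CPM in QS, 1796 in HS and 3179 in PF, with an HS over PF ratio of 0.565 (0.519 to 0.615). Among members with fewer than 3 C1q UMIs that ratio was 6.93, the opposite direction. Ccl4, an inflammatory chemokine, had 5046 CPM in QS, 3279 in HS and 2625 in PF. Ccl6, a chemokine of myeloid cells, had 269, 390 and 147 CPM, and Cxcl16, the ligand of CXCR6, had 138, 111 and 286 CPM.

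Receptors for entry and exit from tissue were called higher for 4 of 15 genes and lower for 2 in HS over PF, against 14.9% and 8.7% of all genes. Cd44, the hyaluronan receptor, had 1260 CPM in QS, 1832 in HS and 751 in PF. Ccr7, which guides mature dendritic cells to lymph nodes, was found in 3 members of each library with 41.6, 111 and 11.9 CPM, and 68.6% of the HS UMIs came from 1 cell.

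Lysosome and granule genes were called higher for 7 of 17 and lower for 1 in HS over PF, against 14.9% and 8.7% of all genes, and higher for 4 of 17 in QS over PF, against 8.13%. S100a4, a calcium-binding protein of motile leukocytes, had 1142 CPM in QS, 1237 in HS and 445 in PF, with ratios of 2.78 for HS over PF (2.38 to 3.26) and 2.57 for QS over PF (2.16 to 3.05). Its relative S100a6 had 1727, 2227 and 880 CPM. Lyz2, the lysozyme of myeloid cells, had 7032 CPM in QS, 6361 in HS and 3465 in PF. QS and HS differed little in these genes, and both stood above PF. Cst3, the protease inhibitor cystatin C and a dendritic cell-rich gene, was the 1 called lower, with 5011 CPM in QS, 3502 in HS and 7021 in PF. In the dendritic cell gates Lyz2 had 1109 CPM in QS, 171 in HS and 1138 in PF. Over the 3 libraries it stood at 166 CPM in the type 1 gate and 1172 CPM in the type 2 gate. Those types were mixed unequally between libraries, and the part of this was not tested. In the classical monocyte gate Lyz2 had 13725, 9434 and 7630 CPM.

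Among 20 measured transcription factors of myeloid cells, 5 were called higher and 3 lower in HS over PF, against 14.9% and 8.7% of all genes, and 4 each way in QS over PF, against 8.13% and 8.05%. Klf2, a factor of quiescent circulating leukocytes, had 2613 CPM in QS, 2094 in HS and 1105 in PF. Zeb2, which favours the monocyte over the type 1 dendritic cell fate, had 1564, 1728 and 882 CPM. Of 18 immediate early genes, 2 were called higher and 4 lower in HS over PF, against the same 14.9% and 8.7%. Egr1 had 374 CPM in QS, 299 in HS and 858 in PF, while Ier3, an inhibitor of cell death, had 419, 721 and 231 CPM. Glycolysis genes were called higher for 6 of 15 in HS over PF, against the same 14.9%. Pkm, pyruvate kinase, had 342 CPM in QS, 414 in HS and 203 in PF, and Pgk1, phosphoglycerate kinase, had 106, 158 and 69.5 CPM. Of 6 measured cell cycle genes 3 were called higher in QS over HS, against 4.49% of all genes, among them Pcna, the DNA polymerase clamp, with 112 CPM in QS, 52.0 in HS and 85.4 in PF. Without the cell with most Pcna UMIs in each library the QS over HS ratio was 1.83, with an interval of 0.951 to 3.55.

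**Figure D4:**
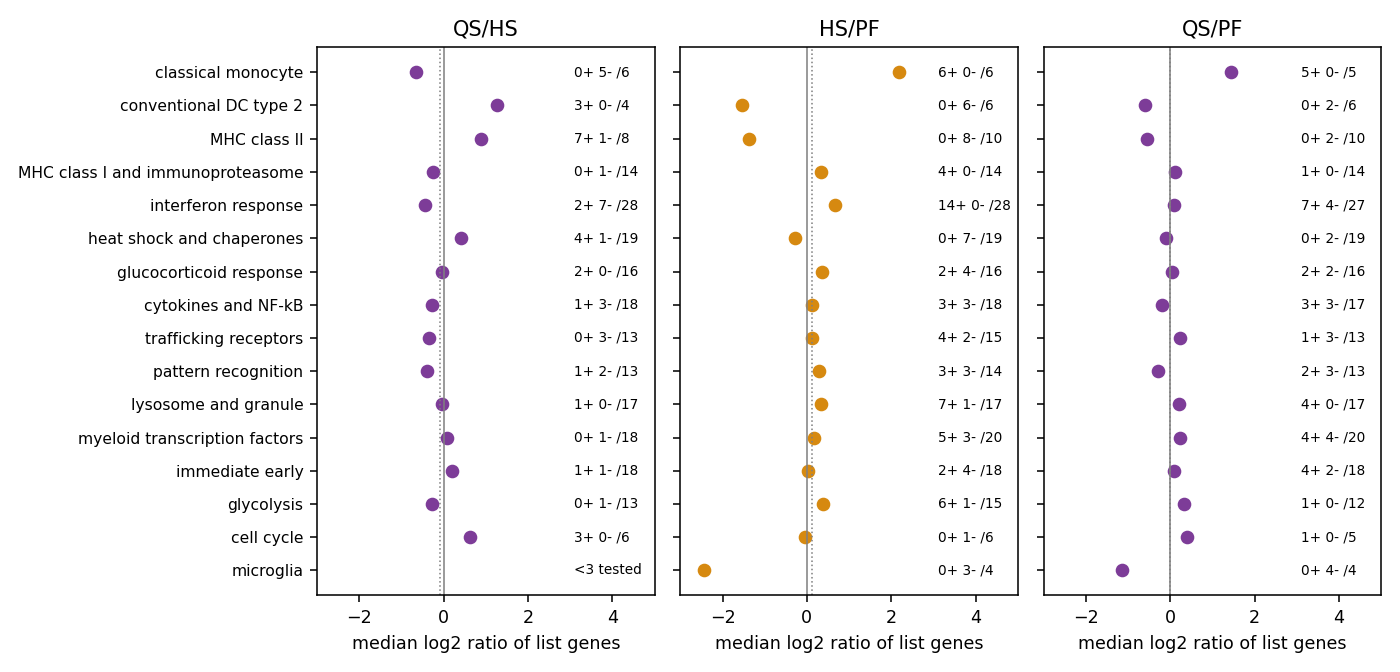
Median log2 ratio of the measured genes of each list in QS over HS, HS over PF and QS over PF; the solid line marks 0, the dotted line the median of all genes, and the text gives genes called higher (+) and lower (-) of those measured. Classical monocyte genes have a median of 2.17 and type 2 dendritic cell genes of -1.54 in HS over PF, and MHC class II genes of -1.36.

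The 8 highest HS over PF ratios among eligible genes included Vcan and Mgst1, described above. S100a8, a calprotectin subunit, had 54.4 CPM in QS, 546 in HS and 5.96 in PF, but 81.7% of the HS UMIs came from 1 cell and 3 UMIs made up the PF value. Plcb1, a phospholipase C, had 294 CPM in QS, 860 in HS and 121 in PF, a ratio of 7.09 for HS over PF (5.41 to 9.45). The classical monocyte gate held 396 of its 397 HS UMIs and all 61 PF UMIs, and inside the gate the ratio was 1.84. Prtn3, the granule protease proteinase 3, had 22.4, 95.3 and 7.95 CPM, the PF UMIs all from 1 cell. Pattern recognition genes were called higher for 3 of 14 and lower for 3 in HS over PF, against 14.9% and 8.7% of all genes. Clec4e, the mycobacterial sensor Mincle, was detected in 6 QS, 23 HS and 6 PF members with 35.2, 128 and 23.8 CPM. Its HS over PF ratio was 5.36 in all members and 1.49 in the classical monocyte gate. Inside that gate the ratio was 8.87 for Vcan, 3.11 for Prtn3 and 1.81 for Mgst1, each lower than in all members. Morrbid, a long noncoding RNA among the 8, went the other way, from 6.72 in all members to 13.7. That gate ratio rests on 145 HS UMIs and only 3 PF UMIs. In the dendritic cell gates its ratio was 0.328, on 1 HS UMI and 7 PF UMIs. Arg2, an arginase, was among the 8 lowest ratios of QS over HS, with 16 CPM in QS, 82.3 in HS and 29.8 in PF.

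The 8 lowest HS over PF ratios included Irf4 and C1qb, described above. Slamf9, a receptor of myeloid cells, was detected in 10 QS, 7 HS and 31 PF members with 118, 32.5 and 161 CPM, a ratio of 0.202 for HS over PF (0.108 to 0.353) and of 3.64 for QS over HS (1.95 to 7.14). Ccl7, a ligand of CCR2, had 67.2 CPM in QS, from 1 cell, 36.8 in HS and 276 in PF. Plau, the urokinase protease, had 9.59, 4.33 and 67.6 CPM from 3, 2 and 34 UMIs, and its HS over PF ratio was 0.0641 (0.00746 to 0.25).

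**Figure D5:**
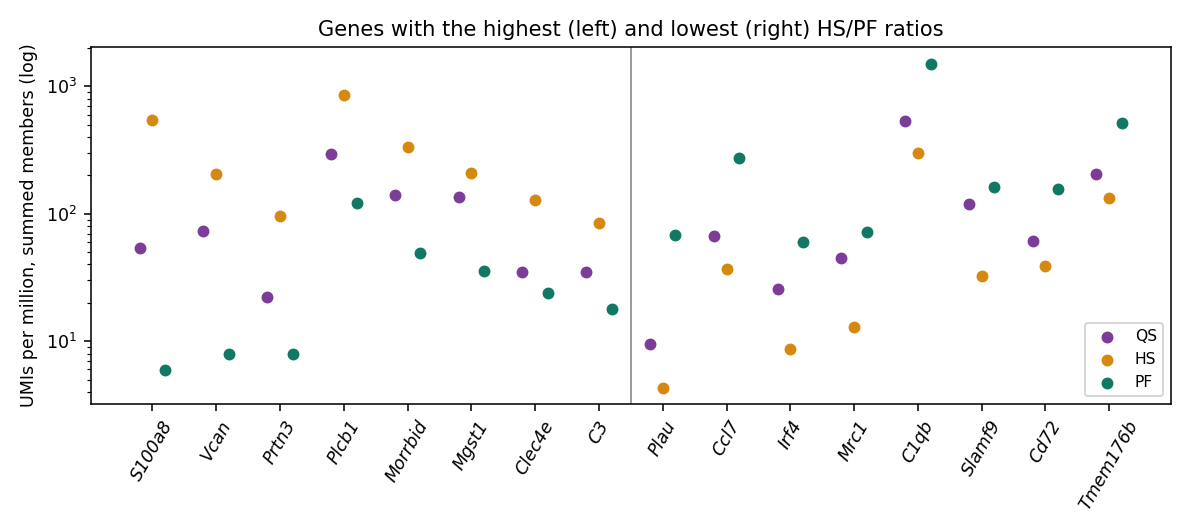
Summed member CPM on a log axis in QS, HS and PF for the 8 genes with the highest and the 8 with the lowest HS over PF ratios. QS lies between HS and PF for each of them, as for Vcan at 73.6 CPM in QS, 204 in HS and 7.95 in PF, a place that the choice of extreme HS and PF values favours.

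The 8 highest QS over PF ratios included Oasl1 and Ifih1, described above, and Slpi. Slpi, a secreted inhibitor of leukocyte proteases, had 528 CPM in QS, 303 in HS and 93.4 in PF. Its QS over PF ratio was 5.65 (4.06 to 7.99), and 55.3% of its PF UMIs came from 1 cell. The classical monocyte gate held 163 of its 165 QS UMIs and 44 of its 47 PF UMIs, and inside the gate the ratio was 2.35. Dusp2, a MAP kinase phosphatase among the 8 highest QS over HS ratios, had 313, 132 and 109 CPM, a ratio of 2.37 for QS over HS (1.71 to 3.32) and of 2.87 for QS over PF (2.04 to 4.07). Among the 8 lowest QS over PF ratios, Axl, a receptor of macrophages that binds apoptotic cells, was detected in 8 QS, 8 HS and 28 PF members with 38.4, 52.0 and 151 CPM. Ccl12, a further CCR2 ligand, had 22.4 CPM in QS, 88.8 in HS and 165 in PF, and 82.9% of its HS UMIs came from 1 cell.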

How the data were processed

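Each condition is 1 library, and the labels do not say whether it pooled several mice. The authors deposited, per the labels, 10x count matrices of UMIs per gene and barcode. Cell Ranger 5.0.0 and Seurat 3.1.2 with build mm10 are named in the submitters' processing notes, while the file headers name Cell Ranger 7.0.1, and nothing in the labels says whether intronic reads were counted. The deposited counts were used as they are, with 500 UMIs and 20% mitochondrial UMIs as limits and no doublet removal in the main values. Members and gene lists were chosen with earlier results of these data known.

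UMIs of members were summed per library and divided by all UMIs of those members (CPM). Ratios carry exact conditional binomial intervals, shares exact Clopper-Pearson intervals and CPM exact Poisson intervals, all at 95% and for counting error only. Genes whose symbol has several IDs and the rule genes were left out of ratios. The text names, for each comparison, genes among the 8 highest and 8 lowest ratios (at least 50 CPM, 30 UMIs and 10 positive members in the library with more), up to 4 called genes of each list, the marker genes, and the 20 genes with the highest ratio of members over other barcodes. Ribosomal, mitochondrial, haemoglobin and receptor genes were left out of the ranking. The calculation was run on simulated library sums with Poisson error. Those sums held no variation between cells, so the run cannot show how calls behave where a single cell holds much of a gene. Alternatives covered stricter membership, doublets, lymphoid UMIs, free RNA, thinning to 1000 UMIs, gates, scaling and UMI minimums. Members with fewer than 3 C1q UMIs, and sums without the cell with most UMIs of a gene, were added after seeing the data. Python 3.11.15, NumPy 2.4.6, pandas 2.3.3, SciPy 1.17.1, Scanpy 1.11.5 and matplotlib 3.10.9 were used. Gene coordinates are from GENCODE M21.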

Additional observations from a re-analysis of the deposited data

How the results depend on the processing

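No paired analysis was possible because each condition has 1 library and the labels carry no replicate number. The number of mice and the 30 to 50 members a library limit every value, and counting intervals do not cover differences between animals. Of 24 shares 21, and of 48 gate percentages 46, stayed within the counting interval of the reported value. Of 700 list medians 654 stayed between the medians of their genes' lower and upper interval bounds, and 28 of 42 counts of called genes within 1.5 times. The causes of the shifts below were not tested, apart from counts that fell where fewer cells or genes entered.

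The HS over PF ratio of member shares was 1.52 and the QS over PF ratio 1.05 with 3 marker genes required, and the HS over PF ratio was 1.62 with fewer than 3 C1q UMIs, where the QS over PF ratio was 1.16. The classical monocyte gate held 26.1% of PF members with 3 marker genes and 26.3% without C1q-bearing cells, against 16%. After thinning, the dendritic cell gates held 10.0% of QS and 30% of PF members. Genes called numbered 553 for QS over HS, 1078 for HS over PF and 641 for QS over PF. With the exclusion genes at 0 UMIs, which left 11 QS, 12 HS and 21 PF members, these counts were 240, 372 and 242. With at least 100 UMIs they were 203, 484 and 249. In the dendritic cell gates they were 189, 277 and 246. In the classical monocyte gate they were 351 for HS over PF and 261 for QS over PF. With 1 UMI as the minimum they were 881 for QS over HS and 1082 for QS over PF, and with fewer than 3 C1q UMIs 693 for HS over PF. Without the cell with most UMIs of each gene, 449 genes were called for QS over HS, 930 for HS over PF and 536 for QS over PF.

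The classical monocyte median moved in the classical gate to -0.21 (QS over HS), 0.64 (HS over PF) and 0.34 (QS over PF), and to 1.70 with fewer than 3 C1q UMIs (HS over PF). The class II median for QS over HS was 0.49 with the exclusion genes at 0 UMIs, 1.16 with 3 marker genes, 1.08 without lymphoid UMIs, 1.72 in the classical gate, 0.22 in the dendritic cell gates and 1.12 with fewer than 3 C1q UMIs. For HS over PF it was -1.71 with 3 marker genes and -2.66 in the classical gate. It was -0.20 in the dendritic cell gates and -1.57 with fewer than 3 C1q UMIs. For QS over PF it was -0.88 in the classical gate. The PF cell with 498 class II UMIs described above weighs on both of these classical gate values. The heat shock median was -0.053 for HS over PF and 0.23 for QS over PF in the classical gate, and turned to 0.22 for HS over PF in the dendritic cell gates. There the oligodendrocyte median turned to 0.13. Type 1 cells made up 3 of the 7 HS cells and 3 of the 23 PF cells of those gates.

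Ratios that turned direction in the dendritic cell gates were, for HS over PF, H2-DMb1 at 1.12, Hspa1a at 1.07, Ccl6 at 0.667, Cxcl16 at 1.13, S100a4 at 0.844, Lyz2 at 0.150 and Ier3 at 0.469. For QS over PF they were Cxcl10 at 0.874, Errfi1 at 1.49, Dusp1 at 0.790, Ccl6 at 0.780, Lyz2 at 0.974 and Ier3 at 0.342, and for QS over HS Cxcl2 at 1.58. In the classical gate they were, for HS over PF, H2-DMa at 1.60, Apoe at 1.84, Cxcl2 at 2.26 and Slpi at 0.888. For QS over PF they were Apoe at 1.58, Plcb1 at 0.903 and Egr1 at 1.02, and for QS over HS C1qb at 0.774 and Apoe at 0.860. With fewer than 3 C1q UMIs, Apoe was 1.49 for HS over PF and 1.72 for QS over PF, Cxcl2 was 6.93 and 2.26, and Cxcl10 was 0.707 for QS over PF. With 3 marker genes, Cxcl2 was 1.88 for HS over PF and 1.03 for QS over PF, and Apoe 1.19 for QS over PF. With the exclusion genes at 0 UMIs, Cxcl2 was 1.71 for HS over PF, Cxcl10 was 0.522 and Ccl7 2.53 for QS over PF, and Ifih1 was 0.664 for QS over HS.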
